A study of Mus musculus with 8 samples.

Results

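Accessible chromatin at 43 genes of NF-kB, Toll-like receptor and interleukin-1 signalling was described in mouse haematopoietic stem cells (HSC) by ATAC-seq, in which a transposase inserts adapters into open DNA. The genes comprise 13 sensors, 15 transducers, 5 NF-kB subunits, 6 inhibitors and 4 cytokines. Peaks of the 8 deposited lists were merged into 90736 regions wherever they overlapped. Each region was given to the mm10 protein-coding gene whose span held its midpoint, or else to the nearest gene within 50 kb. All 43 genes matched the gene table and together held 231 regions. The cells were long-term HSC sorted from bone marrow of mice aged 2-3 months. Every library came from a Vav1-cre iMOS Bcl11a mouse, Vav1 being a promoter active in blood cells. The groups were MUT T1, MUT T2, WT T1 and WT T2, with 2 libraries each, where MUT and WT name the Bcl11a allele and T1 and T2 name the sorted populations. Bcl11a encodes a zinc-finger transcription factor of blood cells, and the design asks about its intrinsic role and about effects of its overexpression on neighbouring wild-type HSC. The sources used here do not say how T1 and T2 cells differ, which of them carried the allele, or whether libraries came from separate animals. Permutation p-values below therefore measure only the spread between libraries.

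NF-kB is a family of dimeric transcription factors that rest in the cytoplasm, bound by inhibitor proteins. Toll-like receptors bind microbial products. Most of them, Tlr3 being an exception, and the interleukin-1 receptor signal through the adaptor Myd88, the Irak kinases and the ubiquitin ligase Traf6 to the IkB kinase complex, which marks the inhibitors for destruction and frees the dimers. HSC carry several of these receptors, and inflammatory cytokines can push them out of rest and towards myeloid output. Freed NF-kB also switches on its own inhibitors, which close the loop.

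Depth differed between libraries. Reads were not counted in the lists, so depth was taken as the genome background that the peak caller used, recovered from the deposited values. It was 1.89 to 3.38 fragments per position, a ratio of 1.79, and it was lowest in replicate 2 of MUT T1 and in WT T2 (both libraries), which stood apart from the other 5. The lists held 62232 to 74785 peaks. Fold enrichment, the authors' ratio of the fragments stacked at a summit to the local background, ran higher in those 3 lists. Its median over regions called in all 8 libraries was 7.87, 8.12 and 8.36 in those 3 libraries, and 7.11 to 7.77 in the others. Fold enrichment is therefore described and not tested, and the part of depth in it was not tested either. As a check on the cells, all 9 HSC marker genes examined (Kit, Procr, Slamf1, Mecom, Hlf, Fgd5, Meis1, Hoxa9 and Mllt3) had a peak within 1 kb of a gene end in every library. The same held for 2 of 5 B cell, 2 of 5 T cell, 2 of 6 neutrophil and monocyte, 3 of 5 erythroid and 4 of 5 endothelial and stromal markers, some of which may be peaks of a neighbouring gene. Elane, S100a8, Ly6g, Cd3e, Cd8a, Ms4a1, Gata1, Hba-a1 and Cdh5 had none in any library. Hoxa9 was counted although its promoter window was called in no library, so its peak too may be that of a neighbouring gene.

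The promoters were open in every library for most of the pathway. A RefSeq promoter window, 250 bases before to 50 after the start, was on hand for 37 of the 43 genes. At least 1 window was overlapped by a peak in all 8 libraries for 33 of them (89.2%), against 60.8% of 17274 genes. The 4 exceptions were the cytokine genes Il1a and Il1b and the receptor gene Il1rl1, with no peak in any library, and Tlr9, with 1 peak in WT T1 replicate 2. Some genes had several windows, and Tlr1, Tnfaip3 and Ikbkg also had a window without a peak in any library. Counted singly, 42 of 50 member windows and 12278 of 21045 windows of all genes were called in all 8 libraries. By role the window was called throughout for 10 of 12 sensors, 13 of 13 transducers, 3 of 3 subunits, 5 of 5 inhibitors and 2 of 4 cytokines. Counting any region within 1 kb of either end of the gene span gave 39 of 43 genes (90.7%), against 64.8% of 21631 genes. Fold enrichments of promoters below are those at the summit of the overlapping peak. That summit can lie outside the window, as it did in every library at Il6, Nfkbia and Tlr6.

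The sequences below show where the NF-kB recognition motif lies in promoters that were open and in one that was not. They are the 250 bases before the start, on the strand of the gene, from RefSeq (GRCm38.p6, the build of mm10), with matches to the kappaB consensus on either strand in capitals. The first 4 are a cytokine, a pair of feedback inhibitors and a subunit, all open in every library. Tnf was open and had no match, and Il1b had neither a peak nor a match.
Il6, chr5:30012864-30013113, plus strand: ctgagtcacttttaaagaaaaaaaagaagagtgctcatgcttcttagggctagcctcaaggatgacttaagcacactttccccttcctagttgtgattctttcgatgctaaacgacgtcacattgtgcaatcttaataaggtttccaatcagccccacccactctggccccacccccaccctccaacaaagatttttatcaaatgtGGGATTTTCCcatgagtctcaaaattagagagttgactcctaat
Nfkbia, chr12:55492648-55492897, minus strand: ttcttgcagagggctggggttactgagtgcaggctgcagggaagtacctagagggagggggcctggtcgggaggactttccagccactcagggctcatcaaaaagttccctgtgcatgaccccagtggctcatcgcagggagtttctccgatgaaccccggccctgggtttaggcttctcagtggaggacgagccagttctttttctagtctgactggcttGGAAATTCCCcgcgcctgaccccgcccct
Tnfaip3, chr10:19015411-19015660, minus strand: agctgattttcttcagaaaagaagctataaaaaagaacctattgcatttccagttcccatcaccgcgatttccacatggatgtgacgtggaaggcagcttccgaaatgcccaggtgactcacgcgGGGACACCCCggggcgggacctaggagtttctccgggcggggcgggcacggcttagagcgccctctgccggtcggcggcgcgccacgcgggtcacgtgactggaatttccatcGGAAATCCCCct
Rel, chr11:23770970-23771219, minus strand: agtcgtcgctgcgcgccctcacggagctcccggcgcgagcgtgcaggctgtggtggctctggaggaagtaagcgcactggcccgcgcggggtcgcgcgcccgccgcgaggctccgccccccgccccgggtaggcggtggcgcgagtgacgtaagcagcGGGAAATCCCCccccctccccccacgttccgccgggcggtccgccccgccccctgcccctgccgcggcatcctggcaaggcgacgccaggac
Tnf, chr17:35202008-35202257, minus strand: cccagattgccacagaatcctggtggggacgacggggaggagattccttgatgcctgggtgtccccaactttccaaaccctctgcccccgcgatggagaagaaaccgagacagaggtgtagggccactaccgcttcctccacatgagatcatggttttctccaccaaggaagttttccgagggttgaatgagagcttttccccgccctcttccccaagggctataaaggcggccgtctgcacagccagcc
Il1b, chr2:129371140-129371389, minus strand: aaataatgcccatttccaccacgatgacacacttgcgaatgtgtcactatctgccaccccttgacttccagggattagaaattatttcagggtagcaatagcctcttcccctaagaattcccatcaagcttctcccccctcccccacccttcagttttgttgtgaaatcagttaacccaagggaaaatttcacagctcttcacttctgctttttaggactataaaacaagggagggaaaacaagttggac

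In the Il6 promoter the match GGGATTTTCC began 44 bases before the start. In Nfkbia, which encodes the inhibitor IkB-alpha, GGAAATTCCC began 29 bases before it. Rel carried overlapping matches from 92 bases before the start, and Tnfaip3, which encodes the deubiquitinase A20, had matches from 125 and from 12 bases before it. A match was present in the window of 12 of 37 member genes (32.4%), against 10.7% of all 17274 genes. By role it was present in 4 of 5 inhibitors (Nfkbia, Nfkbie, Tnfaip3 and Tnip1), 2 of 3 subunits (Nfkb2 and Rel), 3 of 12 sensors (Il1r1, Tlr2 and Tlr3), 2 of 13 transducers (Irak1 and Traf3) and 1 of 4 cytokines (Il6). Nfkb2 held matches in all 3 of its windows, among them GGGAATTCCC from 39 bases before its first start. The same palindrome lay 57 bases before the start of Tnip1 and 172 bases before that of Tlr2.

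Open windows can be compared with each other. Among windows called in all 8 libraries, 15 of 42 member windows (35.7%) held a kappaB match, against 11% of 12278 windows of any gene. None of 32 member matches overlapped a GC box (GGGCGG), against 7.81% of 3111 matches over all windows, called or not. Palindromes count on both strands and sites in overlapping windows count again, so there are fewer sites than matches. With so few sites no difference is read from this. The GC box was in 69.0% of these member windows and 68.3% of all such windows. The RUNX motif TGTGGT was in 16.7% against 11.4%, the ETS motif CCGGAAG in 16.7% against 18.2%, and the AP-1 motif TGANTCA in 14.3% against 4.35%, each searched on both strands. These are shares of letters in a window, and some genes have several overlapping windows.

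**Figure D1:**
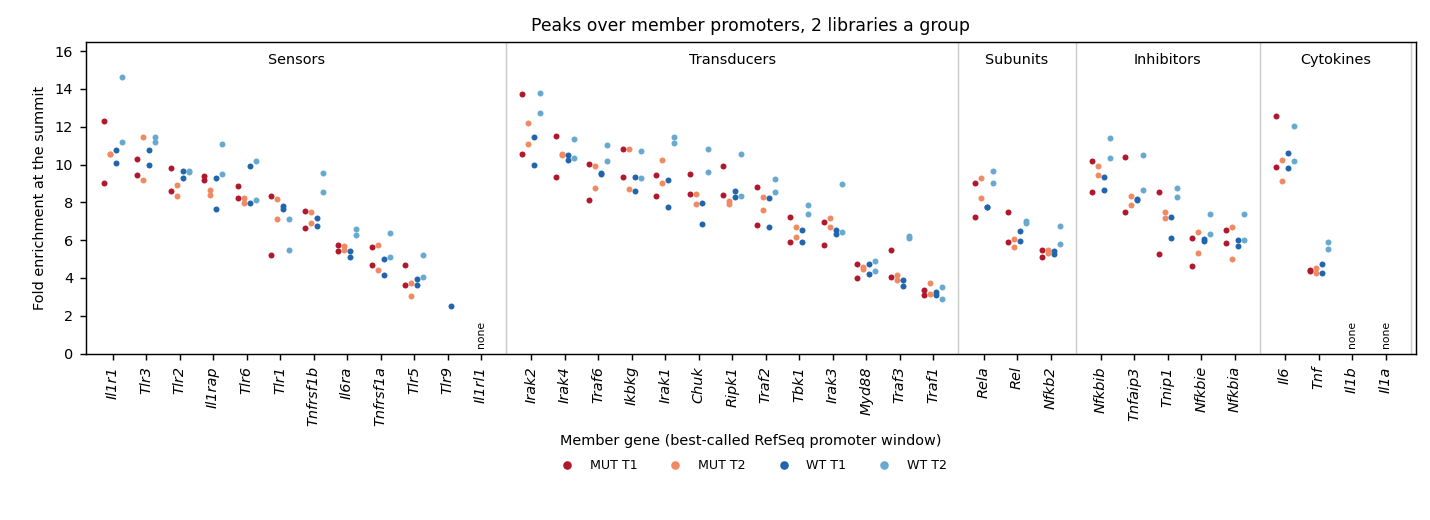
Fold enrichment (linear axis) of the peak over the promoter window of the 37 member genes with a window, by role, 1 point for each library that called it. The value is that at the summit, which can lie outside the window. Irak2 and Il1r1 stand highest and Traf1 lowest among promoters called in all 8 libraries; Il1rl1, Il1b and Il1a have no point and Tlr9 has 1.

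Among the sensors, the Toll-like receptor genes Tlr1, Tlr2, Tlr3, Tlr5 and Tlr6 had promoter peaks in every library, and Tlr4, which has no window, had a region over a gene end in every library, at 7.44 to 9.32. Tlr1 and Tlr6 had promoters at 5.23 to 8.34 and 7.97 to 10.2. Tlr2, the partner of Tlr1 and Tlr6 for bacterial lipopeptides, had promoter fold enrichments of 8.59 and 9.83 in MUT T1 and 8.91 and 8.34 in MUT T2, against 9.68 and 9.29 in WT T1 libraries and 9.66 and 9.60 in WT T2 libraries. MUT and WT overlapped. Tlr5, the flagellin receptor, had a weak promoter of 3.06 to 5.23. Its strongest region had its midpoint 15018 bp outside the span, at 12.4 and 13.8 in MUT T1 and 13.1 and 12.2 in MUT T2, against 12 and 14.3 in WT T1 libraries and 13.3 and 13.7 in WT T2 libraries. Groups overlapped here as well. Tlr3, the endosomal receptor for double-stranded RNA, was nearest to a pair of such regions. The stronger, with its midpoint 28316 bp outside the span (distances are to midpoints throughout), reached 14.1 and 13.3 in MUT T1 and 14.9 and 13.4 in MUT T2, against 12.8 and 16.8 in WT T1 libraries and 15.1 and 14.8 in WT T2 libraries. It lay above 96.1% of the regions called in all 8 libraries in every list. A region outside a span may act on another gene, and which gene it serves was not tested.

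Tlr9, the receptor for unmethylated CpG DNA, differed from the other Toll genes in having no steady promoter peak. Its only promoter call was 2.54, with 34 fragments at the summit, in WT T1 replicate 2. A region inside its span was nevertheless called in all 8 libraries, at 5.23 to 7.76. For interleukin-1 sensing, Il1r1, the signalling receptor, had 8 regions called in every library, second to Nfkb1 among members. Its upstream promoter was at 9.02 and 12.3 in MUT T1 and 10.6 and 10.5 in MUT T2, against 10.1 and 10.7 in WT T1 libraries and 11.2 and 14.6 in WT T2 libraries. Il1rap, the co-receptor, was at 7.67 to 11.1. Il1rl1, the receptor for interleukin-33, had no promoter peak, and its only constant region was inside the span. That region had 6.16 and 4.94 in MUT T1 and 5.70 and 7.07 in MUT T2, against 4.24 and 3.73 in WT T1 libraries and 4.35 and 6.56 in WT T2 libraries, with overlap between MUT and WT. The TNF receptor genes Tnfrsf1a and Tnfrsf1b had promoters at 4.16 to 6.40 and 6.66 to 9.54, and the interleukin-6 receptor gene Il6ra at 5.11 to 6.58.

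All transducers with a window were open at the promoter in every library. The levels ran from Traf1, a TNF receptor-associated adaptor, at 2.88 to 3.71, to Irak2, an interleukin-1 receptor-associated kinase, at 9.96 to 13.8. Myd88, the adaptor shared by most of these receptors, was low at its promoter, at 4 to 4.89, while a second region 1367 bp outside the span had 9.33 to 12.3. Irak4, the kinase that starts the cascade, held the strongest peak of all members, inside its span and 14068 bp from the start. It had 12.9 and 17.6 in MUT T1 and 15.9 and 17.1 in MUT T2, against 13.0 and 13.5 in WT T1 libraries and 15.7 and 18.2 in WT T2 libraries. MUT and WT overlapped. Irak2 had a similar one inside its span at 12 to 16.2, and Traf6 one 12894 bp outside at 10.5 to 14.4. The IkB kinase genes Chuk and Ikbkg, for a catalytic and the regulatory subunit, had promoters at 6.85 to 10.8 and 8.61 to 10.8, and Ikbkb, for the other catalytic subunit, had a region over a gene end at 8.24 to 10.6. Ikbkg's first window belonged by midpoint to a neighbouring gene, so that the best region assigned to it ran from 4.70 to 6.12. The kinase gene Irak1 had its promoter at 7.73 to 11.4, and Irak3, for the relative that restrains the cascade, at 5.75 to 8.97. Of the Traf adaptor genes, Traf2 had 6.70 to 9.26, Traf3 had 3.60 to 6.24 and Traf6 had 8.10 to 11 at the promoter. Tbk1 had 5.88 to 7.85 there, and Ripk2, the kinase of the Nod receptors, had 4.88 to 6.70 over a gene end.

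Ripk1, the kinase at the TNF receptor, was the 1 member with no assigned region in all 8 libraries. Its only assigned region, inside the span, had 4.36 in MUT T1 replicate 2 and 5.94 in MUT T2 replicate 2, against 4.57 in WT T1 replicate 1. Its promoter was nonetheless called in every library at 7.90 to 10.6. The midpoint of that peak lay in the neighbouring span, so the assignment rule gave it to another gene.

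Nfkb1, which encodes p105 and p50, was the most densely covered member, with 20 regions, 12 of them in all 8 libraries and 14 inside the span. Its strongest, 39672 bp outside, had 12.5 and 13.8 in MUT T1 and 14.9 and 15 in MUT T2, against 12.3 and 13.9 in WT T1 libraries and 15.3 and 16.3 in WT T2 libraries. All 4 T1 values lay below all 4 T2 values, as they did in 2.97% of all regions called in all 8 libraries. By rank within each list this region did not separate T1 from T2. Both WT T2 lists were shallow, and the part of depth in this was not tested. Relb, a subunit of the alternative pathway, had an inside region at 9.34 to 12.2. The promoter of Rela, the chief activating subunit, was at 7.24 and 9.03 in MUT T1 and 8.25 and 9.29 in MUT T2, against 7.77 and 7.78 in WT T1 libraries and 9.05 and 9.64 in WT T2 libraries. Rel and Nfkb2 were lower, at 5.64 to 7.51 and 5.11 to 6.73. Rela, Relb and Nfkb2 each had the same 2 regions in every library.

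Among the inhibitors, Tnfaip3 and Nfkbia each drew 12 regions, with 6 and 4 of them constant over the 8 libraries. The Tnfaip3 promoter had 7.49 and 10.4 in MUT T1 and 8.35 and 7.86 in MUT T2, against 8.14 and 8.16 in WT T1 libraries and 8.65 and 10.5 in WT T2 libraries. A region 47084 bp outside it was stronger, at 10.4 to 14.5. The Nfkbia promoter had 6.56 and 5.87 in MUT T1 and 6.70 and 4.98 in MUT T2, against 6.03 and 5.70 in WT T1 libraries and 5.99 and 7.37 in WT T2 libraries. Neither promoter separated MUT from WT. The Nfkbia summits lay 149 to 554 bases after the start, outside the window that holds its kappaB match. Nfkbiz, which encodes the nuclear protein IkB-zeta, had its strongest region over a gene end, at 9.36 to 11.9. Nfkbib (IkB-beta) had 1 region, its promoter, at 8.56 to 11.4, and Nfkbie (IkB-epsilon) was the lowest of the group at 4.63 to 7.41. Tnip1, a partner of A20, had 5 regions, all 5 of them called in every library.

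The cytokine genes split into open and closed promoters. The Il6 promoter, whose sequence carries the match at 44 bases, was open in every library, with 9.86 and 12.6 in MUT T1 and 9.13 and 10.3 in MUT T2, against 9.82 and 10.6 in WT T1 libraries and 10.2 and 12.1 in WT T2 libraries. It stood above 68.0 to 93.8% of the regions called in all 8 libraries. The Il6 summit lay 148 to 217 bases after the start, so these values were not read at the match. Tnf, for tumour necrosis factor, had 1 region, over its promoter and into the gene, at 4.44 and 4.35 in MUT T1 and 4.55 and 4.24 in MUT T2, against 4.75 and 4.26 in WT T1 libraries and 5.55 and 5.91 in WT T2 libraries. The 2 highest values were in WT T2, both shallow libraries, and the other WT values overlapped MUT. Il1b had no peak over its promoter, yet 4 regions around it were called in every library. The nearest, 2298 bp before the gene, had 11.5 and 11.8 in MUT T1 and 11.2 and 13.5 in MUT T2, against 11.2 and 12.1 in WT T1 libraries and 10.8 and 11.4 in WT T2 libraries. A region 37479 bp away had 10.3 to 16.1, and another on the far side, between Il1b and Il1a, had 10.7 to 13.6. Il1a, for the sister cytokine, had 1 such region, 20429 bp from its span, at 7.51 to 9.65. A promoter absent from a list may still be accessible below the caller's threshold.

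**Figure D2:**
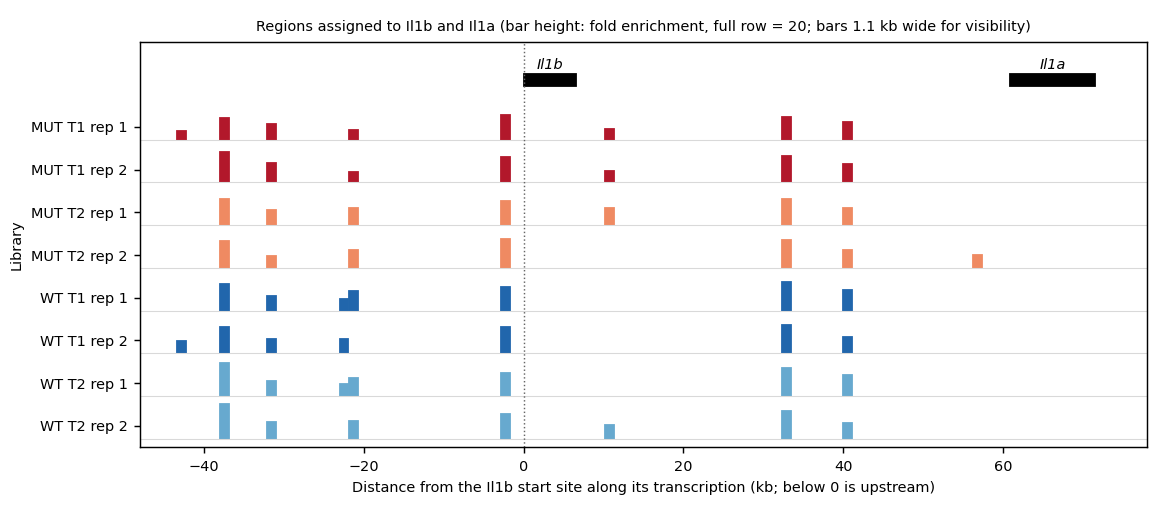
Regions assigned to Il1b and Il1a in each library, by distance from the Il1b start (kb, linear), with bar height giving fold enrichment. No bar stands at either start, while the region 2298 bp upstream of the Il1b span and those at both sides recur in all 8 libraries.

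Steady regions formed the bulk. Among the 231 member regions, 131 (56.7%) were called in all 8 libraries, against 54.6% of all regions, and 23 (9.96%) in 1 library, against 11.6%. The share called throughout was 59.4% for sensors, 55.8% for transducers, 65.5% for subunits, 52.5% for inhibitors and 43.8% for cytokines. Constant regions had a median width of 977 bp and a median fold of 7.58 (927 bp and 7.63 over all such regions). Regions of 2 to 7 libraries had medians of 474 bp and 4.57 (503 bp and 4.84 over all). Those of 1 library had 245 bp and 3.24 (268 bp and 4.06 over all). Part of this order is built in, since merging peaks can only widen a region and strong peaks pass the caller more readily. At summits the medians were 69.5, 27 and 22 fragments (57, 25 and 19 over all regions), so variable regions rested on the fewest fragments.

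**Figure D3:**
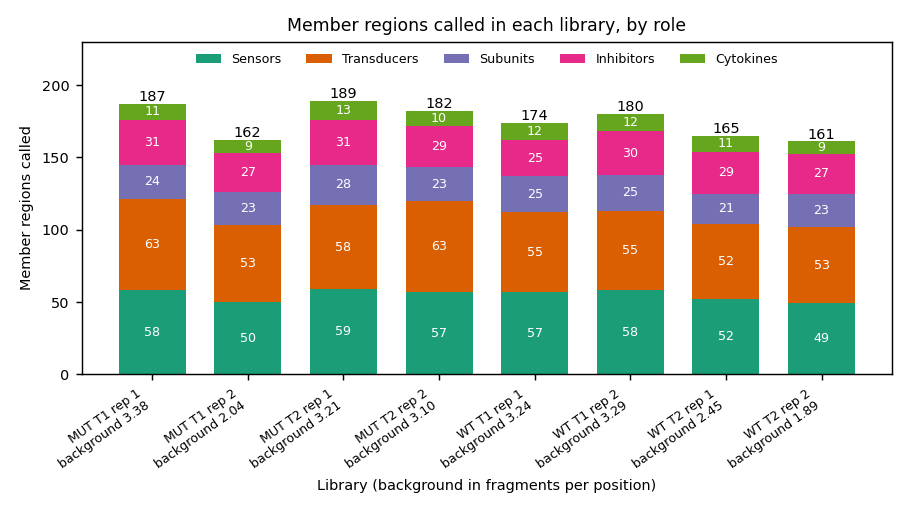
Member regions called in each library (bars from 0), split by role, with the background depth under each name. The 3 shallowest libraries have 162, 165 and 161 regions and the other 5 have 174 to 189.

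The 3 shallowest libraries called the fewest member regions. The number was 187 and 162 in MUT T1 and 189 and 182 in MUT T2, against 174 and 180 in WT T1 libraries and 165 and 161 in WT T2 libraries. MUT libraries averaged 180 ± 12.4 and WT libraries 170 ± 8.60 (SD, n = 4 each), with overlapping ranges. T1 libraries averaged 176 ± 10.6 and T2 libraries 174 ± 13.4 (SD, n = 4 each). The share of member regions called was 81.0% and 70.1% in MUT T1 and 81.8% and 78.8% in MUT T2, against 75.3% and 77.9% in WT T1 libraries and 71.4% and 69.7% in WT T2 libraries. Of all 90736 regions the same libraries called 80.8% and 68.7% in MUT T1 and 81.2% and 77.2% in MUT T2, against 77.9% and 78.9% in WT T1 libraries and 72.6% and 67% in WT T2 libraries. For sensors the share of 69 regions called was 84.1% and 72.5% in MUT T1 and 85.5% and 82.6% in MUT T2, against 82.6% and 84.1% in WT T1 libraries and 75.4% and 71.0% in WT T2 libraries. The part of depth in these counts was not tested.

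No member region was called in all 4 MUT libraries and in no WT library, or the reverse (0.222% of all regions were gained and 0.0606% lost, 0.282% together). None was called in all 4 T1 libraries and no T2 library, or the reverse (0.0507% and 0.0265% of all regions, 0.0771% together). An exact two-sided permutation test over the 70 arrangements of libraries, adjusted over 41159 regions by Benjamini-Hochberg, called 0 regions for either contrast. The smallest p this design allows is 0.0286 before adjustment, and a region reaches it only with calls in all 4 libraries of one side and none of the other. The 256 regions for MUT against WT and 70 for T1 against T2 at an unadjusted p under 0.05 are therefore the gained and lost regions just counted, so the test adds nothing on the members. The lowest member p was 0.143 for MUT against WT and 0.429 for T1 against T2. The number of called regions per gene gave 0 of 11637 genes after adjustment, and 105 and 32 genes before it, again with no member. Il1r1 came nearest, with 9 regions in each of the 4 MUT libraries against 8, 9, 8 and 8 in the WT libraries (exact permutation p = 0.143, adjusted p = 1), beside Irak3 with 8, 7, 8 and 8 in MUT against 7 in every WT library (same p).

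With T1 and T2 taken apart, a region was counted as gained when both libraries of the first group and neither of the second called it, and lost in the reverse case. This is a description and was not tested, since an exact permutation of 2 libraries against 2 has a smallest p of 0.333. MUT T1 against WT T1 gave 6 gained and 4 lost member regions, or 2.60% and 1.73% of 231, where all regions gave 1.26% and 2.13% (3.39% together). MUT T2 against WT T2 gave 8 gained and 2 lost (3.46% and 0.866%), where all regions gave 3.95% and 0.457% (4.41% together). MUT T1 against MUT T2 gave 4 and 6 (1.73% and 2.60%), where all regions gave 0.641% and 1.74% (2.38% together). WT T1 against WT T2 gave 4 and 1 (1.73% and 0.433%), where all regions gave 3.9% and 0.632% (4.54% together). The comparisons share libraries, and shares this small rest on a handful of regions. Both WT T2 libraries were shallow, so depth and group cannot be told apart in the comparisons that use them. With each list cut to the same number of peaks, the gained and lost members were 3 and 3, 2 and 2, 3 and 2, and 2 and 2 in the same order of comparisons. Of all regions, 3.58%, 3.61%, 2.34% and 3.95% were then gained or lost. With peaks scaled to the shallowest genome background the gained and lost members were 7 and 3, 6 and 2, 4 and 5, and 2 and 2, with lists still of 62231 to 71534 peaks. Of all regions, 3.52%, 3.89%, 2.42% and 3.96% differed at that setting. Without MUT T1 replicate 2, the shallow one of its pair, MUT T1 against WT T1 gave 17 gained and 6 lost. Over all regions that setting gave 5310 gained and 2882 lost, against 1140 and 1934 with all libraries. With any 1 library left out, so that a group is 1 library, 14 to 26 member regions differed, beside 6.93% to 12.2% of all regions. Of the 10, 10, 10 and 5 regions, 4, 2, 1 and 1 kept their call with equal lists, and 8, 8, 7 and 3 with scaled backgrounds.

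**Figure D4:**
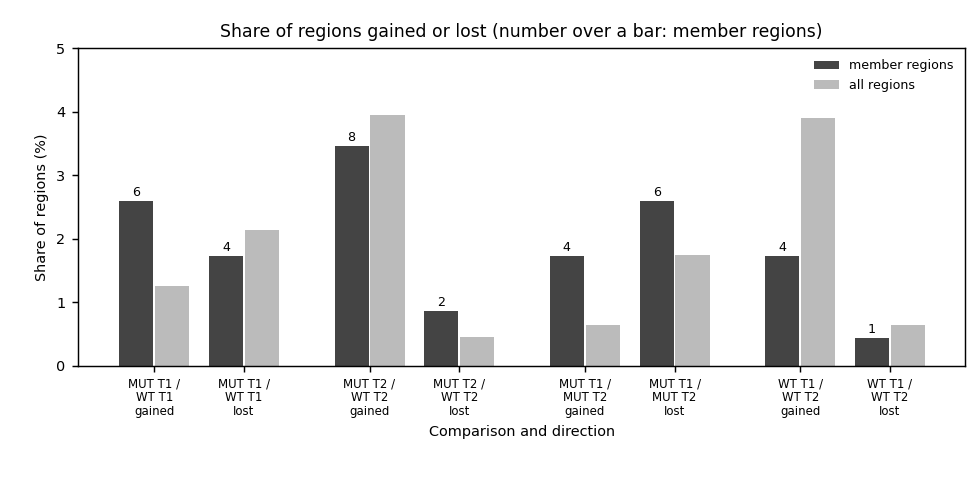
Share of regions gained or lost (percent, bars from 0) among the 231 member regions and among all 90736 regions, for each comparison of 2 libraries with 2. Numbers over the bars count the member regions, from 1 to 8.

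These differing calls were 22 regions in 14 genes, none over a promoter window, with fold enrichments of 2.20 to 7.83 and 11 of them inside a gene span. No region was gained in both populations or lost in both for MUT against WT. The sensors contributed Il1rap, gained in MUT T1 against WT T1 (3.89 and 4.94 in MUT T1), and Il1r1, Il6ra and Tlr1, gained in MUT T2 against WT T2. In MUT T2 the Il1r1 region had 4.88 and 3.81, the Il6ra region 2.92 and 2.20, and the Tlr1 region 5.93 and 4.87. Each of these 3 was also called in WT T1 replicate 2, so none was confined to MUT. The Il1rap region was likewise called in WT T2 replicate 2, at 5.87, and its gain did not stand with equal lists.

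Among transducers, Irak2, Tbk1 and Traf1 regions were gained in MUT T1 against WT T1. Only Traf1's, inside the span at 2.49 and 3.51, was called in no library of another group. Regions at Irak2, Irak3, Tbk1 and Traf3 were gained in MUT T2 against WT T2. The Traf3 region was also called in both WT T1 libraries, at 3.78 and 3.38, and the Irak2 region in WT T1 replicate 1, at 3.65. The Irak3 region, 1326 bp outside the span at 3.74 and 3.39, was called in both MUT T2 libraries and no other. An Ikbkg region was lost in MUT T2 against WT T2, with no call in MUT T2 against 5.80 and 5.16 in WT T2. Tbk1, a kinase that links these receptors to interferon, held a region 14633 bp outside its span that was gained in MUT T1 against WT T1 and lost in MUT T2 against WT T2. It had 4.13 and 3.91 in MUT T1, 4.05 and 5.11 in WT T2, and no call in MUT T2 or WT T1. The share of all regions with such opposite calls was not counted.

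For the subunits, all 4 differing regions lay inside Nfkb1. The first was lost in MUT T1 against WT T1, with no call in MUT T1 against 2.84 and 2.69 in WT T1, and another was gained in MUT T2 against WT T2, at 5.46 and 3.90. The gained region was also called in both WT T1 libraries, at 5.42 and 4.74, and in MUT T1 replicate 2, so it was not confined to MUT. Its gain did not stand with equal lists, scaled backgrounds or a −log10 q of at least 5. Of the inhibitors, an Nfkbiz region 12344 bp outside the span was gained in MUT T1 against WT T1, at 4.86 and 6. That region was also called in WT T2 replicate 1, at 3.88. Cytokine genes, with 16 of the 231 member regions, gave 3 of the 4 losses in MUT T1 against WT T1. This role is named after the calls were seen, and 2.13% of all regions were lost in that comparison. An Il1b region had 5.60 and 6.60 in WT T1, and Il6 regions 49400 and 12043 bp before the gene had 6.37 and 3.73, and 7.31 and 5.13, in WT T1, where MUT T1 had no call. A second Il1b region went the other way, at 5.25 and 5.27 in MUT T1 with no call in WT T1. WT T2 replicate 2 also called this second region, at 6.56. Both Il6 regions were also called in MUT T2 replicate 1, and no cytokine region differed between MUT T2 and WT T2. The loss of the farther Il6 region had 15 summit fragments in WT T1 replicate 2. It did not stand with equal lists, scaled backgrounds or a −log10 q of at least 5. The Il1b loss and the nearer Il6 loss stood at each of these settings. However, the lost Il1b region lay 22484 bp from the gene, and both Il6 regions were also more than 10 kb away. With assignment within 10 kb all 3 cytokine losses dropped out. The 1 member loss then left in MUT T1 against WT T1 was the region inside Nfkb1. The link of these losses to cytokine genes therefore depends on the distance allowed for assignment.

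**Figure D5:**
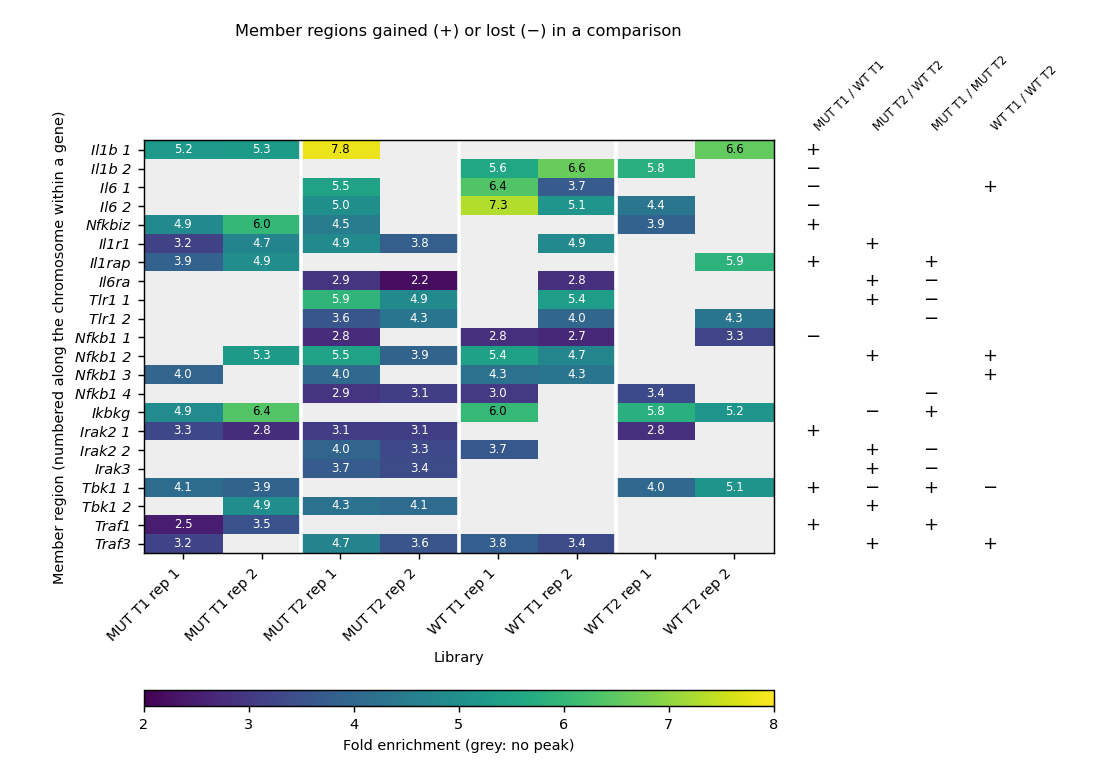
Fold enrichment (colour and number) of the 22 member regions gained or lost in a comparison, by library, with grey where no peak was called and signs at the right for gained (+) and lost (−). Calls are scattered over genes and groups, and no row is filled in all 4 MUT and empty in all 4 WT libraries.

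Some regions differed by 3 or more libraries between MUT and WT, and are named after their values were seen. Of these, 3 held more MUT libraries (1.49% of all regions did). They were the Il1r1 region at 4 MUT and 1 WT libraries, an Irak2 region at 4 and 1, and a Tbk1 region 1250 bp outside the span at 3 and 0. The remaining 1, the Il1b region 22484 bp from the gene, held 0 MUT and 3 WT libraries (0.512%). Leaving out 1 library left 1 region called in every MUT library and no WT library without MUT T1 replicate 1 (Tbk1), WT T1 replicate 2 (Il1r1) or WT T2 replicate 1 (Irak2), and 1 in the reverse without WT T2 replicate 2 (Il1b). Of all regions, 0.436% to 0.674% split MUT from WT in either direction with 1 library left out. No member region differed by 3 or more libraries between T1 and T2 (0.921% and 0.417%).

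Strength was compared within the regions called in all 8 libraries, as a percentile of fold enrichment inside each list. This was done because the median fold was higher in the 3 shallow lists. The part of depth in that was not tested. No member region ranked higher in every MUT than in every WT library (1.73% of all regions), and 1 ranked lower (1.55%). It lay inside Irak2 and sat at percentiles 2.16 and 3.10 in MUT T1 and 1.52 and 2.06 in MUT T2, against 11.2 and 3.19 in WT T1 libraries and 9.83 and 4.01 in WT T2 libraries. The highest MUT and the lowest WT value nearly met, at 3.10 and 3.19. For T1 against T2, the Tlr2 promoter ranked higher in every T1 library (1.37%), at 71.2, 74.5, 79.4 and 73.6 in T1 against 65.2, 65.0, 68.3 and 65.1 in T2. A region inside Traf1 ranked lower (1.28%), at 46.0, 61.1, 60.6 and 45.2 in T1 against 76.5, 66.3, 64.8 and 68.5 in T2. In each case 1 of 131 regions is 0.763%, under the share of all regions. By fold enrichment itself, chosen after seeing the data, these were not the regions that stood apart, and the Tlr2 promoter overlapped between T1 and T2. By fold, 3 member regions were lower in every MUT than in every WT library (2.46% of all regions were) and none was higher (0.573%). Both regions lower in every T1 than in every T2 library (2.97%) were assigned to Nfkb1, and none was higher (0.26%). They were the strongest one described above, outside the span, and one at 7.16 to 9.47 in T1 against 9.66 to 10.3 in T2.

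Other genes of the pathway were counted in the same way. A list of 58 of them, from Ticam1 and Tirap to Cxcl1 and Icam1, held 265 regions, 58.9% of them called in every library, against 54.6% of all regions. The promoter window was called throughout for 38 of 44 (86.4%), against 60.8% of all genes. None of their regions was gained or lost between all MUT and all WT libraries (0.282% of all regions). MUT T1 against WT T1 gave 3 gained and 6 lost (1.13% and 2.26%), where all regions gave 1.26% and 2.13%. MUT T2 against WT T2 gave 9 gained and 2 lost (3.40% and 0.755%), where all regions gave 3.95% and 0.457%.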

How the data were processed

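ATAC-seq libraries of sorted HSC were deposited as 1 list of peaks each, so peaks came from single samples and not from merged samples. This does not tell whether a sample combined cells of several mice. The submitters' processing notes name Bowtie2, SAMtools and MACS2, and mm10 as the build. Not given in the sources used here are versions and any shift of cut sites. Every deposited peak carries a score and a fold enrichment, the ratio of fragments at the summit to the background around it. The authors' caller also gave the −log10 of its p-value and of its q-value, and the place of the summit. The lowest −log10 q-value deposited was 3.00.

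Peaks of chromosomes 1 to 19 and X formed regions at an overlap of 1 bp, and a library called a region that its peaks overlapped by 1 bp. Summit fragments and background were solved from the ratio together with the −log10 p-value, and 99.99% of pileups in each library returned the deposited p within 0.001. Where a −log10 p exceeded 300 no pileup was solved. The recovery and the permutation test were checked on simulated data. Gene spans and promoter windows came from RefSeq tables (GRCm38.p6). Exons, introns and the sequence of regions outside promoter windows were not analysed here. Calls were compared with exact two-sided permutation tests over 70 arrangements, adjusted by Benjamini-Hochberg over all regions or genes, with a threshold of 0.05. Python 3.11.15, numpy 2.4.6, pandas 2.3.3, scipy 1.17.1 and matplotlib 3.10.9 were used.

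The members, gene lists, motifs and tests were chosen with earlier results of these data known. Member values named are, by role, the strongest region called in all 8 libraries of the 3 highest and the lowest genes, promoter windows, and the regions gained or lost. Alternatives were equal numbers of peaks, a −log10 q of at least 5, peaks scaled to the shallowest background, 50% cover, assignment within 10 kb, omission of libraries, and a replicate block. Of the HSC marker list, 1 gene is not reported here.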

Additional observations from a re-analysis of the deposited data

Results flagged for a closer look

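A region near Tbk1, at chr10:121531640-121532004, had opposite calls in the 2 populations. It was found by searching the 231 member regions for opposite calls, and it was the only 1. The share of all regions with opposite calls was not counted, so it cannot be set against a general rate. It was gained in MUT T1 against WT T1, with 4.13 and 3.91 fold in MUT T1 and no call in WT T1. It was lost in MUT T2 against WT T2, with no call in MUT T2 against 4.05 and 5.11 fold in WT T2. This difference between T1 and T2 was not tested. The summits held 25 and 16 fragments in MUT T1 and 18 and 19 in WT T2. The calls stood with peaks scaled to the shallowest background and at a −log10 q of at least 5, and neither stood with equal numbers of peaks.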

How the results depend on the processing

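The counts of differing regions were unstable. With equal numbers of peaks they were 6 for MUT T1 against WT T1, 4 for MUT T2 against WT T2 and 5 for MUT T1 against MUT T2. The shares of all regions that differed were then 3.58%, 3.61% and 2.34%. Assignment within 10 kb gave 5 for MUT T1 against WT T1 and 2 for WT T1 against WT T2, since distant regions drop out. Leaving out 1 library gave 23 to 26 for MUT T1 against WT T1, 22 to 26 for MUT T2 against WT T2, 18 to 23 for MUT T1 against MUT T2 and 14 to 24 for WT T1 against WT T2. Over these omissions 6.93% to 12.2% of all regions differed. Member regions that split every MUT library from every WT library were 0 to 1 when 1 library was left out, and 1 (Tnfaip3) at 50% cover. Of all regions, 0.436% to 0.674% and 0.319% did so. With fold enrichment in place of its rank, chosen after seeing the data, 3 constant regions (Traf6, Il1b and Nfkb1) were lower in every MUT than in every WT library, against 1 by rank; the cause was not tested. For T1 against T2 fold gave 2 regions, both assigned to Nfkb1 and 1 of them outside its span, and rank gave 2 others (Tlr2 and Traf1). Gene ends called in all 8 libraries stayed at 38 to 39 members and promoters at 32 to 33 with equal numbers of peaks, a −log10 q of at least 5, scaled backgrounds, and 1 library or the 3 shallowest left out, and gene ends also at a reach of 500 bp; other settings were not run for them. The replicate block gave 0 regions past the threshold for MUT against WT and for T1 against T2; with 36 arrangements its smallest p is 0.0556, so it cannot pass. Replicate numbers are not known to pair libraries, and deviations of same-numbered libraries correlated at 0.0158 to 0.0764. Variable and single-library regions rested on medians of 27 and 22 summit fragments.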
